A study of Homo sapiens with 4 samples.

Results

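Indole was set against DMF in HCT116 cells that overexpress human IDO1. The comparison takes 2 of the 4 libraries of the series, with all 20812 amplicon targets matched by gene name between them. A target was compared when it reached 10 CPM, a target's reads scaled to the size of its library, in at least 1 of these 2 libraries, which held for 8523 targets. The other 12289 were under that minimum, and 4717 of them had no read in either library. HCT116 is an established human colon carcinoma line. In the first group, cells overexpressing human IDO1 received 1 mM indole for 24 h, and in the second the same line received DMF, taken here as the vehicle. Wild type HCT116 cells given DMF or 1 mM indole for 24 h make up the other 2 groups and are used below only to place values. The labels say neither how IDO1 was introduced nor whether the line is 1 clone, and they name no empty vector for the wild type cells. The design text speaks of 2 replicates each, but each group is represented by a single count column, and whether replicates were pooled in it is not stated. Each group was therefore treated as 1 library, so the differences below have no replicate check and carry no p-value.

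IDO1 (indoleamine 2,3-dioxygenase) opens the indole ring of tryptophan and so starts the kynurenine pathway, which feeds signalling metabolites and NAD synthesis. Indole is made from tryptophan by gut bacteria and reaches the colon epithelium. Both indoles and kynurenine are known ligands of the aryl hydrocarbon receptor (AHR), a transcription factor that pairs with ARNT and switches on detoxifying enzymes such as CYP1A1. Indole-derived compounds are also known ligands of the pregnane X receptor (PXR), whose classical target is CYP3A4.

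In the IDO1 line, the DMF library held 22736172 reads over 15505 targets and the indole library 19069730 reads over 15395 targets. A count of 3 reads, the limit that a count of 0 allows, is 0.131 CPM with DMF and 0.157 CPM with indole. Reads made by PCR with no molecular tag cannot be taken as separate molecules. The 95% intervals given here treat reads as separate and cover counting error only, so they may be too narrow. Among all compared genes, the interval excluded 1 for 3788 (44.4%), so an interval that excludes 1 does not set a gene apart. These intervals compare 2 libraries and not 2 conditions. Epithelial genes were present in both libraries of the IDO1 line, with EPCAM at 300 CPM with DMF and 275 CPM with indole, and CDX2, a factor of intestinal identity, at 48.3 and 42.3 CPM. CEACAM5, a colon antigen, had 0 reads in all 4 libraries, and LGR5, a stem cell marker, had at most 1 read in each. Of 10 leukocyte markers with a target, 5 were at 0 in both libraries of the IDO1 line, among them PTPRC, CD3D, CD3E and MS4A1. The 10 summed to 10.3 CPM with DMF and 9.35 CPM with indole, and to 9.83 and 7.91 CPM in wild type, led by the lysosomal gene CD68 at 8.15 and 8.31 CPM in the IDO1 line.

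The identity of the IDO1 line bears on every value below. Against wild type, 104 targets other than IDO1 and IDO2 had at most 3 reads in each wild type library and at least 60 reads over both libraries of the IDO1 line. Their summed level was 492 CPM with DMF and 500 CPM with indole. Those also on a list of embryonic kidney line genes included UCHL1 at 16.2 and 17.4 CPM, IRS4 at 15.8 and 13.0 CPM and HOXD13 at 11.9 CPM in each. Among the 104, 1 more abundant target is not reported here. The 25 genes of that list, of which 13 were compared, summed to 1543 CPM with DMF and 1508 CPM with indole, against 1240 and 923 CPM in wild type. Most of the summed level of the 25 genes was thus also read in wild type. The 104 targets set the line apart from wild type by the rule that chose them, so this is no separate result. Each of them had reads in both libraries of the line. Of the 104, 60 were higher and 44 lower with indole, and the median ratio was 1.04. Over all compared genes, 48.8% were higher with indole. The interval of counting error included 1 for 79 of the 104, while it excluded 1 for 44.4% of all compared genes. Most of the 104 were under the minimum for comparison, where intervals are wide, so the count of 79 says little about stability. How these genes came to be read in the IDO1 line, and their part in its difference from wild type, was not tested. In such bulk samples, fewer cells of a type and less RNA per cell cannot be told apart.

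IDO1 itself had 3451 reads in the DMF library and 2440 in the indole library, or 151 and 127 CPM, against 0 and 2 reads in the wild type libraries. Both libraries of the line thus carried the overexpressed gene. Its ratio, indole over DMF, was 0.843 (0.800 to 0.888). IDO2, its paralog, had 317 and 253 reads, a ratio of 0.952 (0.803 to 1.13), and may hold reads of IDO1.

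Levels in the IDO1 line differed little between indole and DMF. Differences are log2 ratios of CPM + 1, indole against DMF, a scale that understates the change of genes with few reads. The median over the 8523 genes was -0.01, the middle 50% of genes lay between -0.12 and 0.11, and 95% of them between -0.35 and 0.37. The SD across genes was 0.19 in the IDO1 line, against 0.45 over 8679 genes in wild type. The spread narrowed with abundance, from an SD of 0.21 for genes with a mean of 10 to 30 CPM to 0.15 for those above 300 CPM. In the IDO1 line 7 genes were at least 2-fold apart (0.0821%), with 4 higher (0.0469%) and 3 lower (0.0352%) with indole. At a threshold of 1.5-fold there were 61 (0.716%), with 37 higher (0.434%) and 24 lower (0.282%). In wild type 252 genes (2.9%) were at least 2-fold apart and 1459 (16.8%) at least 1.5-fold. The difference between the lines in these counts was not tested.

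**Figure D1:**
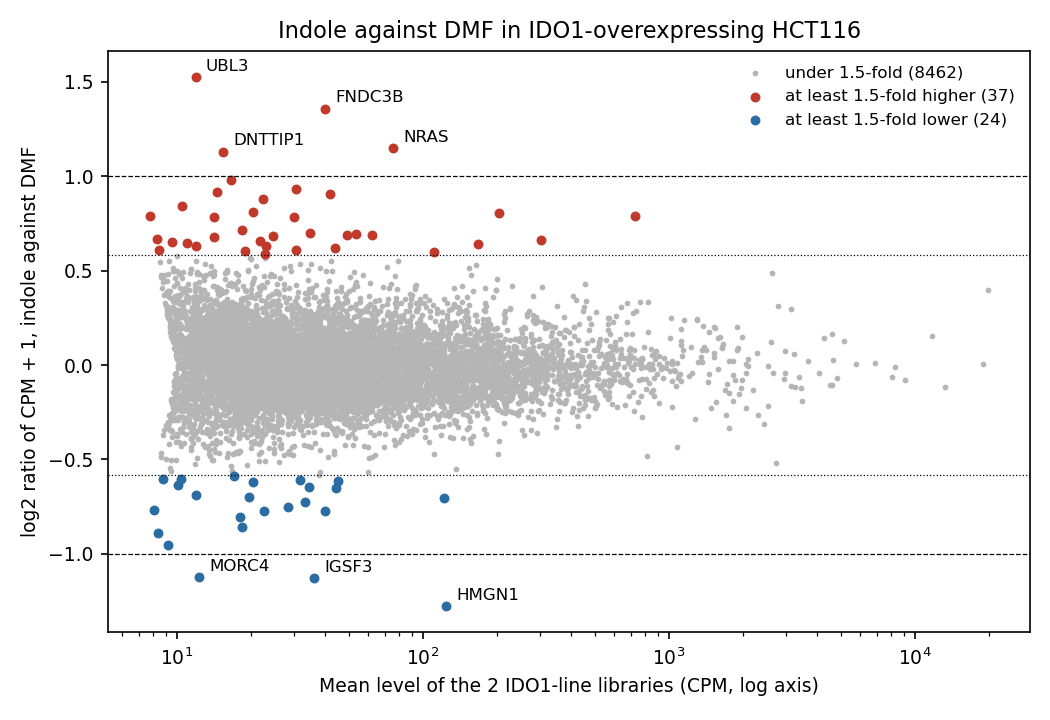
Log2 ratio of CPM + 1, indole against DMF, in the IDO1 line, against the mean level of the 2 libraries in CPM (log axis), with 1 point per gene. Dashed lines mark 2-fold and dotted lines 1.5-fold; 37 genes are at least 1.5-fold higher (red) and 24 at least 1.5-fold lower (blue), and the 7 beyond 2-fold are named.

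The 4 genes at least 2-fold higher with indole are a ubiquitin-fold protein, a membrane protein, a RAS protein and a subunit of a deacetylase complex. UBL3, which is anchored to membranes by a lipid and sorts proteins into small vesicles, stood at 5.65 CPM with DMF and 18.1 CPM with indole in the IDO1 line, and at 17.9 and 26.6 CPM in wild type. Its log2 ratio was 1.52 and its ratio 3.21 (2.61 to 3.96), from 129 and 347 reads. The DMF library of the IDO1 line was the lowest of the 4, and its indole library lay at the level of wild type with DMF. The wild type libraries differed in the same direction, by 0.54 on the log2 scale. Of the 13 compared ubiquitin-fold modifiers, UBL3 alone was past 1.5-fold, against 0.716% of all compared genes. The list was chosen with earlier results of these data known. Among the others, SUMO3 had 0.22 and UBL5 stood at 65.7 and 66.3 CPM.

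FNDC3B, a membrane protein with fibronectin type III domains, stood at 21.9 CPM with DMF and 57.7 CPM with indole in the IDO1 line. In wild type it had 62.9 and 96.8 CPM. The log2 ratio was 1.36 in the IDO1 line and 0.61 in wild type, the same direction in both lines. The DMF library of the IDO1 line lay 2.63-fold or more under each of the other 3. Its relative FNDC3A was at 49.0 and 47.4 CPM, a ratio of 0.967 (0.885 to 1.06).

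NRAS, a small GTPase that relays growth factor signals to the RAF kinases, stood at 46.6 CPM with DMF and 104 CPM with indole, with 97.4 and 81.5 CPM in wild type. Its log2 ratio was 1.15 (ratio 2.24, 2.08 to 2.42). HRAS went the same way, with 15.4 and 29.2 CPM in the IDO1 line (log2 ratio 0.88) and 28.5 and 31.1 CPM in wild type. For both genes the low value was again the IDO1 line with DMF, and the value with indole was near or above those of wild type. Of the 15 RAS proteins and regulators compared, NRAS and HRAS were the 2 at least 1.5-fold higher, and 0 were lower. Over all compared genes 0.434% were higher and 0.282% lower by that much. The list median was -0.06, and the list was chosen with earlier results of these data known. Among the kinases downstream, values lay slightly under 0, with MAPK3 at -0.13, MAP2K1 at -0.11 and MAP2K2 at -0.13. SOS1, which loads RAS with GTP, had -0.32.

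DNTTIP1, a subunit of the mitotic deacetylase complex (MiDAC), stood at 9.29 CPM with DMF and 21.5 CPM with indole, with 17.7 and 16.9 CPM in wild type (log2 ratio 1.13). The other subunits of that complex differed less. ELMSAN1 had 0.04, TRERF1 0.26, HDAC1 0.13 and HDAC2 0.12. Just outside the 2-fold threshold lay GDE1, a glycerophosphodiesterase, at 10.9 and 22.4 CPM (0.98).

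The 3 genes at least 2-fold lower with indole are a nucleosome-binding protein, a membrane protein and a chromatin ATPase. HMGN1, which binds nucleosomes and loosens chromatin, stood at 176 CPM with DMF and 72.0 CPM with indole in the IDO1 line, and at 260 and 167 CPM in wild type. Its log2 ratio was -1.28, or 2.44-fold lower (2.30 to 2.60), and it was lower with indole in both lines. Near-identical copies of HMGN genes may share reads, so this value is uncertain. The related HMGN2 had 319 and 330 CPM and HMGN4 38.8 and 33.9 CPM. Of 8 compared HMGN and HMG box genes, HMGN1 alone was past 1.5-fold, and 5 were above 0. Over all compared genes 0.716% were past 1.5-fold and 48.8% above 0. This list too was chosen with earlier results of these data known.

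IGSF3, an immunoglobulin-domain membrane protein, stood at 49.7 CPM with DMF and 22.2 CPM with indole, a log2 ratio of -1.13. In wild type it went the other way, from 44.6 to 71.3 CPM (0.66). MORC4, a chromatin ATPase, stood at 17.2 and 7.37 CPM in the IDO1 line (-1.12) and at 21.3 and 21.6 CPM in wild type. For all 3 genes the IDO1 line with indole was the lowest of the 4 libraries, at least 2.01-fold under each of the others. GPR135, an orphan receptor, lay just outside the threshold at 12.4 and 5.96 CPM (-0.95).

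**Figure D2:**
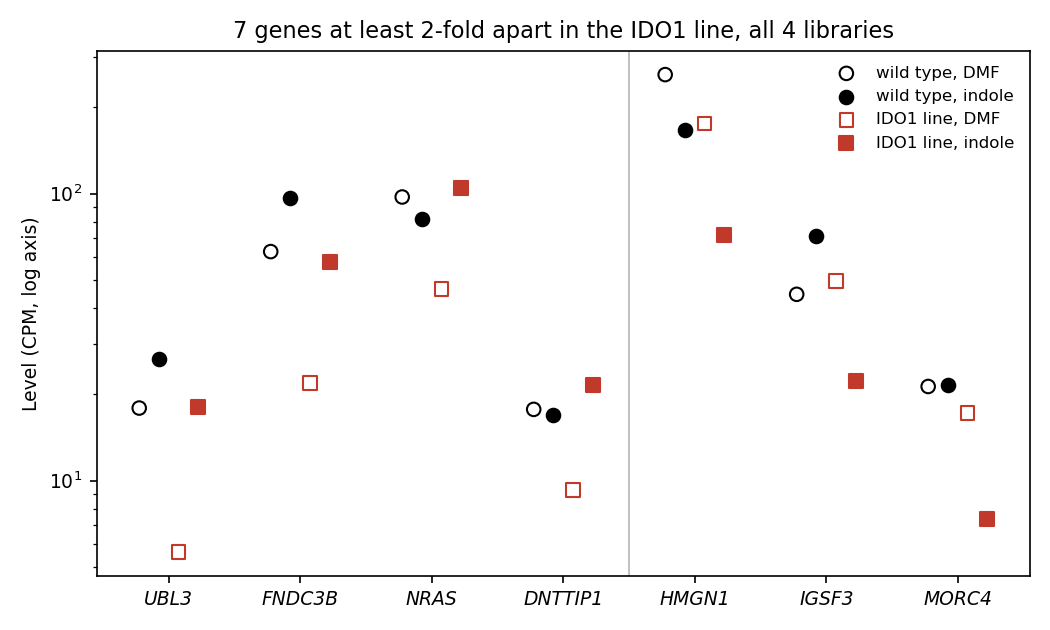
Level in CPM (log axis) of the 7 genes at least 2-fold apart, in each of the 4 libraries; each point is 1 library. For UBL3, FNDC3B, NRAS and DNTTIP1 the IDO1 line with DMF (open red square) is the lowest point, and for HMGN1, IGSF3 and MORC4 the IDO1 line with indole (filled red square) is the lowest.

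The same arrangement recurred among the 61 genes past 1.5-fold. Of the 37 higher genes, the IDO1 line with DMF was the lowest of the 4 libraries for 25 (67.6%), against 16.6% of all compared genes. Of the 24 lower genes, the IDO1 line with indole was the lowest for 23 (95.8%), against 21.5% of all. It was the IDO1 line with DMF that was the highest for 6 of the 24. The choice of genes by the ratio of these 2 libraries favours such an order, so these shares describe the genes and support nothing.

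The other higher genes had varied known roles. MAML1, a coactivator of Notch, had 28.8 and 54.8 CPM (0.91), and FZD1, a Wnt receptor, 7.19 and 13.7 CPM (0.84). SNRPB2, a protein of the U2 splicing particle, had 14.5 and 26.1 CPM (0.81). MCM5, part of the replicative helicase, had 234 and 371 CPM (0.66). The helicase BLM had 13.6 and 23 CPM (0.72), and RAD17, which loads the checkpoint clamp, 10.1 and 18.2 CPM (0.79). In wild type MCM5, BLM, RAD17 and SNRPB2 were lower with indole, at -0.62, -0.63, -0.52 and -0.78.

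The most abundant gene past 1.5-fold was RPS9, of the small ribosomal subunit, with 535 CPM with DMF and 925 CPM with indole, and 900 and 844 CPM in wild type (0.79 and -0.09). Here too the library with DMF in the IDO1 line stood below the other 3. LENG8, which lies 241552 bases from RPS9 in the RefSeq annotation, had 149 and 260 CPM (0.80), and 275 and 379 CPM in wild type. PSMD14, the deubiquitinase of the proteasome lid, had 87.6 and 133 CPM (0.60). ATP5E, a subunit of mitochondrial ATP synthase, had 26.2 and 43.1 CPM (0.70), and its wild type values went from 40.0 to 22.2 CPM.

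Among the other lower genes, TIAF1 had 11.2 and 5.59 CPM (-0.89) and MYO18A, an unconventional myosin, 23.1 and 12.8 CPM (-0.80). RefSeq gives TIAF1 as another name of MYO18A, so these targets may read 1 gene. FGF9, a growth factor, had 10.4 and 5.70 CPM (-0.77), and 9.03 and 21.0 CPM in wild type. The factor ATF7 had 35.8 and 20.8 CPM (-0.75). CLIC4, a chloride channel family member, had 151 and 92.7 CPM (-0.70), and ADK, the kinase that clears adenosine, 24.8 and 15.8 CPM (-0.62). For most of these the wild type values ran the other way: 18 of the 24 lower genes were above 0 in wild type, with a median of 0.38 there. Over all 8523 genes, 3801 were above 0 in wild type with a median of -0.06, and 3972 had the same sign in both lines.

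By direction, 2 of the 37 higher genes were at least 1.5-fold higher in wild type (7.09% of all genes compared there) and 6 at least 1.5-fold lower (9.72%). Of the 24 lower genes, 1 was at least 1.5-fold lower in wild type and 7 at least 1.5-fold higher. Over all 8523 genes, 563 were at least 1.5-fold apart in wild type in the direction they had in the IDO1 line and 763 in the opposite one. The 2 comparisons share no library.

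**Figure D3:**
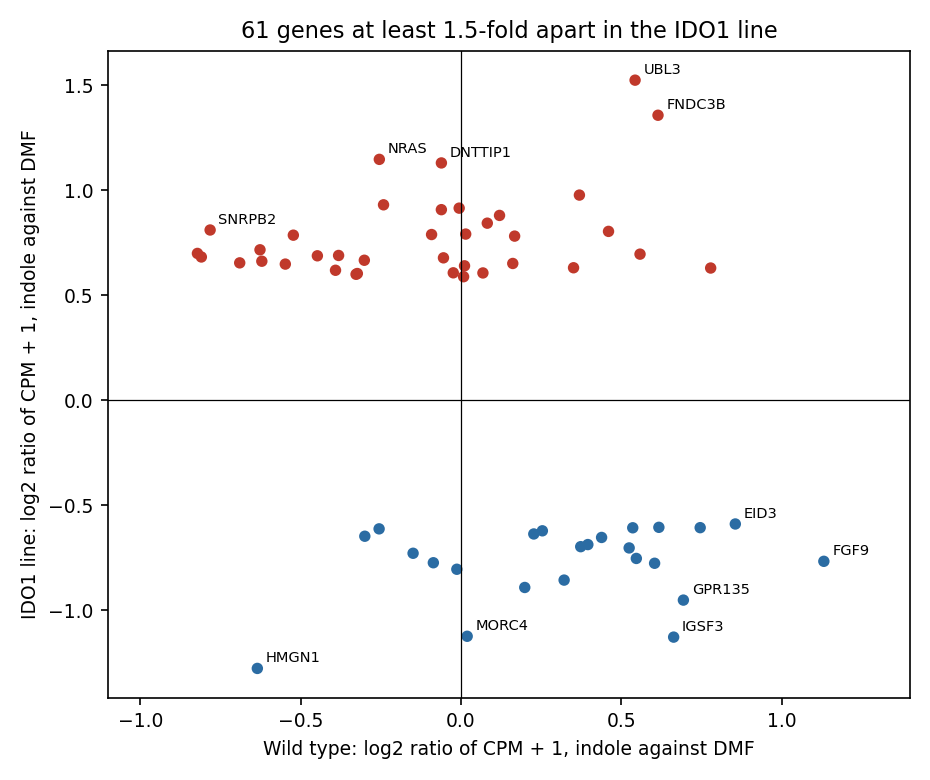
The 61 genes at least 1.5-fold apart in the IDO1 line, with the log2 ratio of CPM + 1 in wild type on the x axis and in the IDO1 line on the y axis; each point is 1 gene, red higher and blue lower with indole in the IDO1 line. Of the 37 red genes 15 lie above 0 in wild type, and of the 24 blue genes 18 do.

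Of 3448 genes under the minimum with at least 30 reads in 1 of the 2 libraries, 4 had an interval of the ratio wholly past 2-fold. LOC100507217 had 79 reads in DMF and 183 in indole, a ratio of 2.76 (2.11 to 3.64), against 153 and 174 reads in wild type. MGC45800 went from 31 reads to 3, with 0 in both wild type libraries. CLDN9, a tight junction protein, had 40 and 7 reads, and CCNO, a cyclin of multiciliated cells, 82 and 20. In wild type CLDN9 had 15 and 12 reads and CCNO 64 and 63.

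AHR is a known receptor both for indoles and for kynurenine, which lies downstream of IDO1. Of 14 AHR targets on the list, 5 were compared, with a median of -0.07. In the IDO1 line 0 of the 5 were past 1.5-fold in either direction, against 0.716% of all compared genes. At that share, a count of 0 among so few genes says little about AHR targets. The genes that respond most directly to the receptor had few reads, so they are given as reads. The promoter of CYP1A1, the classical target, is shown with its match to the core letters bound by AHR and ARNT in capitals (GCGTG, searched on both strands). It is the RefSeq sequence of build GRCh38.p14 at chr15:74725479-74725778 on the minus strand, from 250 bases before to 50 bases after the start, written 5′ to 3′. The motif was found in 36.5% of 35114 promoters of this length, in 52.7% of the 6760 compared genes with a promoter in the table, and in 7 of 12 AHR targets with one (58.3%). A match is no evidence of binding.
CYP1A1: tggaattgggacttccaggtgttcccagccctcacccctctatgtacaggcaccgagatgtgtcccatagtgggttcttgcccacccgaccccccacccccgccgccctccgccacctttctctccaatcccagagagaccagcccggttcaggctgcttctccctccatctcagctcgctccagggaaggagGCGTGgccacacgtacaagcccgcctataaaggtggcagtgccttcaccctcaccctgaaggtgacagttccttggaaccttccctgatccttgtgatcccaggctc

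In the IDO1 line, 29 reads of CYP1A1 were counted in DMF and 24 in indole, a ratio of 0.987 (0.550 to 1.76), and 18 and 91 reads in wild type. CYP1B1, a related oxidase, had 38 and 41 reads (1.29, 0.807 to 2.06), against 25 and 87 in wild type. TIPARP, a feedback inhibitor of AHR, had 179 and 167 reads (1.11, 0.895 to 1.38), against 159 and 325. So 3 targets that were higher with indole in wild type had intervals that included 1 in the IDO1 line, which were wide for both CYP1 genes at this depth. AHRR, the repressor of AHR, had 87 reads in DMF and 31 in indole, a ratio of 0.425 (0.272 to 0.647), against 40 and 141 reads in wild type. Its directions in the lines were thus opposite. ALDH3A1, an aldehyde dehydrogenase, had 33 and 51 reads (1.84, 1.17 to 2.95), and the drug exporter ABCG2 had 23 and 38 (1.97, 1.14 to 3.46).

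Among the better covered targets, EREG, an EGF receptor ligand, had 58.2 and 84.0 CPM, a ratio of 1.44 (1.34 to 1.55), and 84.4 and 70.8 CPM in wild type. The amino acid transporter SLC7A5 had a ratio of 0.914 (0.895 to 0.934), CYP2S1 0.906 (0.824 to 0.997) and NQO1, a quinone reductase, 0.95 (0.918 to 0.983). AHR itself was among the genes past 1.5-fold, with 9.16 and 14.7 CPM in the IDO1 line (0.63) and 10.4 and 13.6 CPM in wild type. Its partner ARNT had 82.3 and 79.7 CPM. The HSP90 proteins that hold AHR in the cytosol were higher with indole, HSP90AB1 at 0.31 and HSP90AA1 at 0.20, while their cochaperone PTGES3 had -0.33. The PXR gene NR1I2 and its target CYP3A4 had 0 reads in both libraries, which allows up to 0.131 and 0.157 CPM.

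Most enzymes of the kynurenine and NAD pathways had too few reads to be compared. Of 24 with a target, 6 had no read in either library of the IDO1 line. The 8 compared had a median of 0.06 and 0 past 1.5-fold, against 0.716% of all compared genes. At that share, a count of 0 among 8 genes says little about these pathways. GOT2, a mitochondrial transaminase, had 196 and 169 CPM (-0.21), and NMNAT1, the nuclear enzyme of NAD synthesis, 9.03 and 11.1 CPM (0.27). NAMPT, which salvages nicotinamide, had 84.0 and 92.4 CPM (0.14), and WARS, the tryptophan tRNA synthetase, 107 and 113 CPM (0.08). QPRT, which makes the NAD precursor from quinolinate, had 130 and 145 reads (1.33, 1.04 to 1.70), against 0 and 3 in wild type. AADAT, a kynurenine transaminase, had 112 and 126 reads (1.34, 1.03 to 1.75).

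Metallothioneins, small cysteine-rich proteins that bind zinc and copper, had lower values with indole. All 5 compared genes of the metallothionein and zinc response list of 15 were below 0, with a median of -0.23, against -0.01 for all genes and 48.8% of all genes above 0. None of the 5 was past 1.5-fold, against 0.716% of all genes. Expression of these genes is known to be driven by the zinc sensor MTF1 through metal response elements. The promoters of MT2A and MT1X are shown because both carry several matches to those elements, in capitals, as TGCGCNC or TGCACNC on either strand. They are RefSeq sequences of build GRCh38.p14, both on the plus strand, at chr16:56608334-56608633 and chr16:56682220-56682519. MT2A has 8 matches and MT1X 4, and no match overlaps another, but the last in MT2A also holds the letters GCGTG. At least 1 match was found in 29.5% of 35114 promoters and in 40.3% of those of the compared genes.
MT2A: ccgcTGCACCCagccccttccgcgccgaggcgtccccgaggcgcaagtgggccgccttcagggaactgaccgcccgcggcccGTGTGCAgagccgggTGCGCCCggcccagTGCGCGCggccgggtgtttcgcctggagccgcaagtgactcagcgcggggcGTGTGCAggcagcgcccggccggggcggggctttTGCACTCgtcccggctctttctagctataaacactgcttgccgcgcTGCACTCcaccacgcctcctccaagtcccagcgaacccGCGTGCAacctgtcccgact
MT1X: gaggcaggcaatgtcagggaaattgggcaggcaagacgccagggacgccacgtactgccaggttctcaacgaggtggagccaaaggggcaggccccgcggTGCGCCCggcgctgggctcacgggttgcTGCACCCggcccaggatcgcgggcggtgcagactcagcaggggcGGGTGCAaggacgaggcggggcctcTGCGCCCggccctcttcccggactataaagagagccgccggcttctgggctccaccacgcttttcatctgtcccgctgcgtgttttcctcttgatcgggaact

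MT2A had 3196 CPM with DMF and 2233 CPM with indole, a ratio of 0.699 (0.690 to 0.707), and 3312 and 3024 CPM in wild type. This was the most negative log2 ratio among compared genes with a mean above 300 CPM. MT1E had 848 and 700 CPM (0.825, 0.807 to 0.844), and 917 and 690 CPM in wild type. MT1X had 94.2 and 84.4 CPM (0.896, 0.839 to 0.956), and MT1F 13.8 and 11.7 CPM (0.847, 0.710 to 1.01). The zinc exporter SLC30A1, another MTF1 target, had 46.5 and 39.5 CPM (0.850, 0.774 to 0.934), and went the other way in wild type, from 39.1 to 54.3 CPM. MTF1 had 107 and 134 reads (1.49, 1.15 to 1.94), and MT1G, also under the minimum, 13 and 19 reads (1.74, 0.816 to 3.84). Near-identical metallothionein genes may share reads, so their single values are uncertain.

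**Figure D4:**
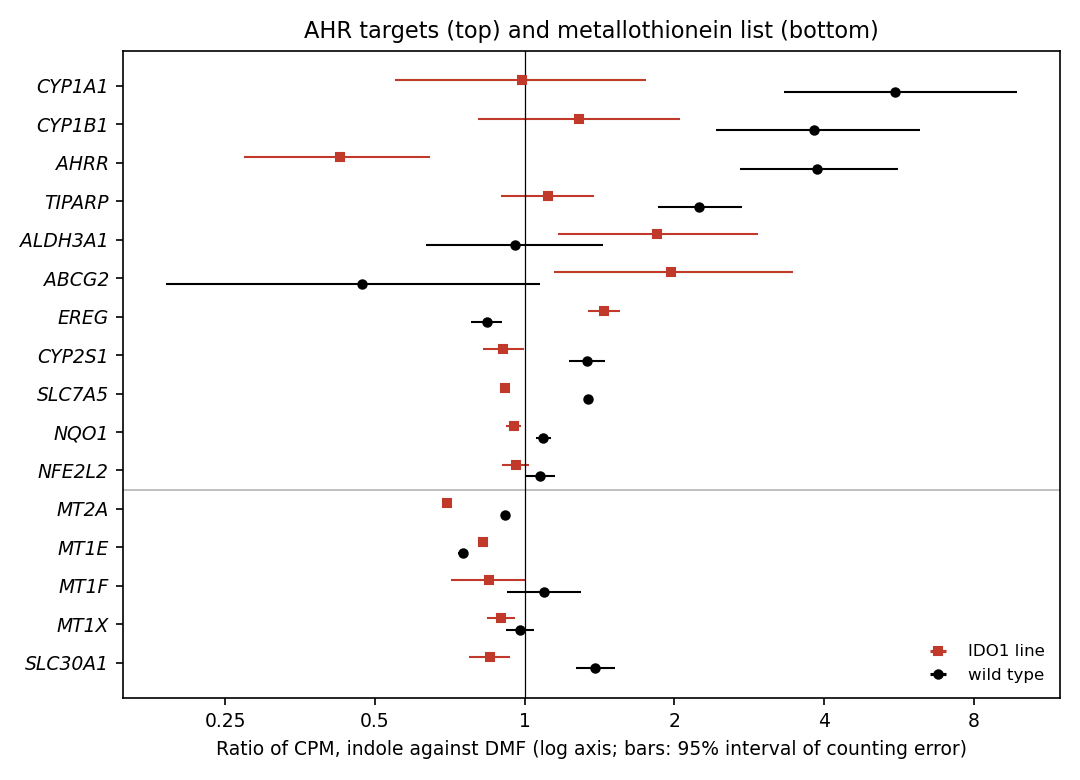
Ratio of CPM, indole over DMF (log axis), for AHR targets with reads in both libraries (top) and the compared metallothionein list (bottom), in the IDO1 line (red) and wild type (black); bars are 95% intervals of counting error. In the IDO1 line CYP1A1 stands at 0.987 and AHRR at 0.425, and the 5 genes of the lower block lie between 0.699 and 0.896.

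The 2 lists made after values were seen here are left aside, and the 53 others were chosen with earlier results of these data known. Several of the 53 hold a gene already past 2-fold. Medians of those with 5 or more compared genes lay between -0.23 and 0.23. All were inside the middle 95% of single genes, but a median of several genes varies less than 1 gene. That range therefore cannot tell whether a list median is unusual. Of these lists, 10 had medians at least 0.1 from that of all genes. Keratins, the filament proteins of epithelia, had a median of 0.23 with 6 of 6 compared genes above 0 and 0 past 1.5-fold. Over all compared genes 48.8% were above 0 and 0.716% past 1.5-fold. KRT7 had 15.9 and 22.9 CPM (0.51), and KRT23 47.7 and 66.7 CPM (0.47). Among keratins under the minimum, KRT10 went the other way, with 6.18 and 4.28 CPM (-0.44).

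Lists of protein synthesis and folding differed among themselves. Over all compared genes 48.8% were above 0, the share to set beside the counts for these and the following lists. Of 23 cytosolic tRNA synthetase genes, 16 were above 0, with a median of 0.12, led by FARSB (0.47), GARS (0.46) and NARS (0.42). GARS had 168 CPM with DMF and 231 CPM with indole, and 236 and 286 CPM in wild type. Of 8 subunits of the TRiC chaperonin, which folds actin and tubulin, 7 were above 0 (median 0.12). CCT8 was highest at 0.25, and CCT7 was below 0 at -0.09. Of 53 cytosolic ribosomal protein genes, 37 were above 0 (median 0.08). RPS9 was the only one past 1.5-fold, followed by RPS18 (0.43) and RPS13 (0.41), and RPLP1 had -0.31. Copies of ribosomal protein genes may share reads. Of 31 ribosome biogenesis genes 25 were above 0, and of 31 translation factors also 25, with medians of 0.06 and 0.05. Mitochondrial tRNA synthetases had 8 of 15 above 0 (median 0.03), and the endoplasmic reticulum unfolded protein response 9 of 23 (median -0.02).

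Of 41 nuclear respiratory chain subunits, 32 were above 0 with a median of 0.11, and 0 were past 1.5-fold. The shares over all compared genes were 48.8% above 0 and 0.716% past 1.5-fold. UQCRB, of complex III, had 9.20 and 13.5 CPM (0.51), and NDUFS1, of complex I, 45.4 and 61.9 CPM (0.44). In wild type 0 of the 41 were above 0 and the median was -0.54. Of 48 mitochondrial ribosomal proteins 37 were above 0 (median 0.08), with MRPL36 at 0.48. Of 31 proteasome subunits 23 were above 0 (median 0.07), with PSMD7 at 0.47 beside PSMD14.

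Mitosis genes had a median of -0.01 with 14 of 30 above 0, against -0.94 in wild type. NUF2, of the kinetochore, had 9.86 and 12.9 CPM (0.36), and TPX2, a spindle assembly factor, 306 and 251 CPM (-0.28). Of 31 DNA replication genes, 23 were above 0 with a median of 0.05 (wild type -0.58), and MCM5 alone was past 1.5-fold. Cholesterol synthesis genes had a median of 0.07 with 12 of 19 above 0 (wild type -0.76). ACAT2 had 45.2 and 56.3 CPM (0.31) and MVD 309 and 243 CPM (-0.35). The differences of these medians between the lines were not tested.

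Outputs of ATF4 and CHOP, the factors of the amino acid and endoplasmic reticulum stress response, lay on the lower side. Of 17 compared, 4 were above 0, with a median of -0.11, against 0.68 in wild type. In the IDO1 line 0 of them were past 1.5-fold, against 0.716% of all compared genes. CHAC1, which degrades glutathione, had 25.2 and 20.5 CPM (-0.28), and 19.2 and 86.3 CPM in wild type. The secreted stress factor GDF15 had 302 and 269 CPM (-0.17), and the cystine carrier SLC7A11 96.0 and 84.4 CPM (-0.18). Against that direction, ASNS, the asparagine synthetase, had 57.0 and 67.4 CPM (0.24) and the serine enzyme PSAT1 122 and 139 CPM (0.19). Of 18 epithelial junction genes 5 were above 0 (median -0.08), and JUP, which links cadherins to the cytoskeleton, had 514 and 426 CPM (-0.27). Of 8 NF-kB genes 2 were above 0 (median -0.12), with RELA at 113 and 94.0 CPM and its inhibitor NFKBIA at 86.2 and 72.2 CPM.

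**Figure D5:**
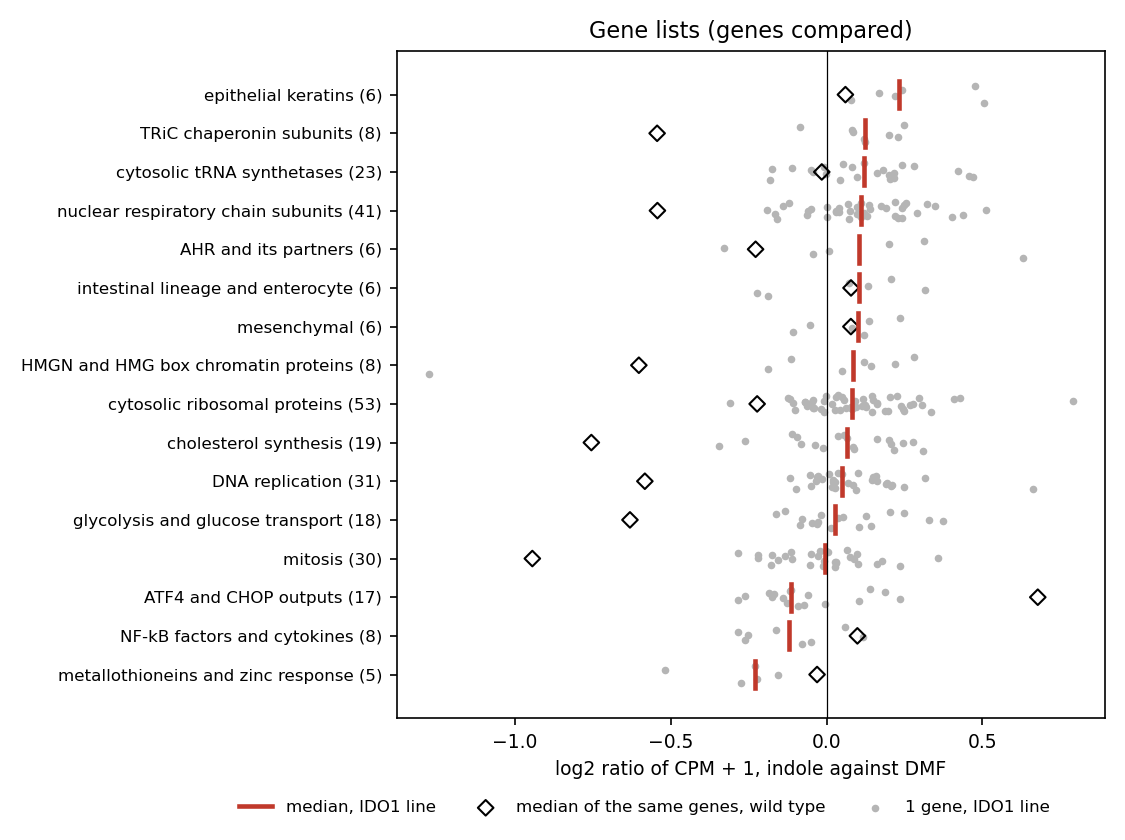
Log2 ratio of CPM + 1, indole against DMF, for 16 gene lists (compared genes in brackets): grey points are single genes in the IDO1 line, red bars their median and open diamonds the median of the same genes in wild type. The red medians lie between -0.23 (metallothioneins) and 0.23 (keratins), while mitosis genes stand at -0.94 and ATF4 outputs at 0.68 in wild type.

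Small nucleolar and Cajal body RNAs, which guide the modification of ribosomal and spliceosomal RNA, were grouped after their values were seen. Of 52 compared, 38 were above 0, with a median of 0.14, and 5 were at least 1.5-fold higher and 1 lower. Over all compared genes 48.8% were above 0, 0.434% at least 1.5-fold higher and 0.282% lower. SNORA71B had 20.7 and 40.3 CPM (0.93), SNORA23 40.5 and 66.1 CPM (0.70) and SNORD15B 130 and 204 CPM (0.64), while SNORA70G had 10.8 and 6.74 CPM (-0.61). The host genes of such RNAs had a median of 0.14 over 11, 6 of them above 0, with SNHG5 at 64.2 and 94.5 CPM (0.55). RMRP, the RNA of the mitochondrial RNA processing ribonuclease, had 17083 CPM with DMF and 22478 CPM with indole, a ratio of 1.32. RPPH1, the RNA of ribonuclease P, had a ratio of 0.924. Reads of a small nucleolar RNA and of its host gene cannot be told apart where they overlap.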

How the data were processed

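RNA was measured with the Ion AmpliSeq transcriptome kit, a PCR panel with 1 short target per gene, per the labels' protocols. The deposited files hold raw counts of reads per target, which the authors had not normalized, as their whole-number values and headers show. The submitters' processing notes name build hg19. Aligner, counter and strand handling: not given in the sources used here.

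Each sample's group came from its title. Counts were scaled by TMM over 4 libraries (edgeR 4.0.16, R 4.3.3) to CPM. A pseudocount of 1 CPM was added before log2 ratios, and genes with at least 10 CPM in 1 of the 2 libraries were compared at 2-fold and 1.5-fold. Ratios of named genes use scaled CPM without pseudocount, with 95% Clopper-Pearson intervals (exact) for the share of reads in each library. Genes under the minimum were considered from 30 reads in 1 of the 2 libraries. Depth was 22736172 and 19069730 reads, and 1 read was worth 0.0438 and 0.0523 CPM. The calculation was tested on simulated data. Alternatives were library totals, TMM over 2 libraries, DESeq2 1.42.0 size factors, totals without the 10 most abundant genes, pseudocounts of 0.25 and 5, minimums of 1 and 50 CPM, and removal of the trend of the ratio with abundance by a running median over 501 genes.

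The members and 53 gene lists were chosen with earlier results of these data known, and 2 further lists, of small nucleolar RNAs and their hosts, after their values were seen here. Named were IDO1, all genes at least 2-fold apart, the 15 largest ratios each way, 5 genes each way under the minimum by the interval bound nearest 1, and the 10 most abundant genes. Of the lists of AHR targets, tryptophan and NAD enzymes and metallothioneins all measured members could be named, and of other lists with 5 or more compared the 3 largest, or up to 6 for the 12 lists farthest from the median of all genes. Genes named beyond this rule were chosen after their values were seen. Some genes that the rule names are not reported here.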

Additional observations from a re-analysis of the deposited data

Results flagged for a closer look

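The direction of the difference between indole and DMF was opposite in the 2 lines, by at least 1.5-fold in each, for 13 of 113 results checked. Apart from AHRR, the flagged genes were already among the 61 past 1.5-fold in the IDO1 line, so that side was met by choice. Of all 8523 compared genes, 763 were at least 1.5-fold apart in wild type in the direction opposite to the IDO1 line. With 1 library a group, the difference between the lines was not tested. The values are the log2 ratio in the IDO1 line minus that in wild type.

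Higher with indole in the IDO1 line and lower in wild type were ATP5E (1.52, with 0.70 in the IDO1 line and -0.82 in wild type), BLM (1.34, with 0.72 in the IDO1 line and -0.63 in wild type) and HSPA14 (1.49, with 0.68 in the IDO1 line and -0.81 in wild type). The same held for MCM5 (1.28, with 0.66 in the IDO1 line and -0.62 in wild type), MED30 (1.34, with 0.65 in the IDO1 line and -0.69 in wild type) and SNRPB2 (1.59, with 0.81 in the IDO1 line and -0.78 in wild type). These include a subunit of ATP synthase, a replication helicase and a splicing protein.

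Lower with indole in the IDO1 line and higher in wild type were EID3 (-1.44, with -0.59 in the IDO1 line and 0.86 in wild type), FGF9 (-1.90, with -0.77 in the IDO1 line and 1.13 in wild type) and GPR135 (-1.64, with -0.95 in the IDO1 line and 0.69 in wild type). The same held for IGSF3 (-1.79, with -1.13 in the IDO1 line and 0.66 in wild type), LOXL1 (-1.22, with -0.60 in the IDO1 line and 0.62 in wild type) and SNORA70G (-1.35, with -0.61 in the IDO1 line and 0.75 in wild type). AHRR, the repressor of AHR, had the largest difference at -2.40, from -0.88 in the IDO1 line and 1.52 in wild type, at few reads in each library. It was under the minimum of 10 CPM. Of the 24 lower genes past that minimum, 7 were at least 1.5-fold higher in wild type, and not all of these are named here.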

How the results depend on the processing

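No paired analysis was possible because each group has 1 library and the labels give no replicate numbers. Library totals, TMM over 2 libraries and median-of-ratios size factors gave the same counts and the same 7 and 61 genes, and none of the 61 genes changed direction under the 9 alternatives where it was compared. With a pseudocount of 5, the 1.5-fold threshold was passed by 36 genes, 23 higher and 13 lower, 5 of the 7 genes at 2-fold were kept, and UBL3 had a log2 ratio of 1.12. With a minimum of 1 CPM, 14 genes were 2-fold apart (7 higher and 7 lower) and 252 were 1.5-fold apart (136 higher and 116 lower), which included the 7 and the 61. With a minimum of 50 CPM, 3 (2 higher and 1 lower) and 17 (12 higher and 5 lower) were left. With the trend with abundance removed, 5 genes were 2-fold lower, and the 1.5-fold genes split into 33 higher and 32 lower, against 37 and 24, so the share of higher genes was 50.8% in place of 60.7%. A minimum of 50 CPM gave 70.6%. With a minimum of 1 CPM, 5 lists had medians at least 0.1 from that of all genes, against 10. The side of the median of all genes on which a list lay changed for 12 lists, among them AHR and its partners, RAS proteins and regulators, mitosis and the embryonic kidney genes. Another minimum tests more or fewer genes, and a larger pseudocount shrinks small values by construction. For removal of the trend the cause was not tested. Depth limits genes such as CYP1A1, CYP1B1, AHRR, ALDH3A1 and ABCG2, with under 90 reads in each library of the IDO1 line.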
